A study of Mus musculus with 4 samples.

Results

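Kidney nuclei of an hKLF6_OE_AAI mouse were compared with those of a Control_AAI mouse, cluster by cluster, to ask what overexpression of human KLF6 changes in a kidney that has also received aristolochic acid I (AAI). The comparison was fixed by the labels alone: it took the columns of these 2 samples of the 4 in the series, which are 46 of the 92 columns, 1 for each of 23 clusters in each mouse. The Control_AAI mouse carried TRE-hKLF6 only, a transgene that is silent without a transactivator, and the hKLF6_OE_AAI mouse carried CAG-rtTA as well, so that doxycycline turned on human KLF6. Both were males of mixed strain with no age given in the sources used here, both ate a doxycycline diet for 1 week, and both were killed 24 hours after 1 AAI injection of 2 mg/kg. The CAG promoter drives rtTA throughout the body, so a difference in tubule cells cannot be told apart from one set off by another cell type or organ. Each group is 1 mouse, so no difference below has a spread between mice, no test was made, and each value describes this pair. A second pair, hKLF6_OE against Control, had the same genotypes and diet without AAI, and its 2 mice are not those of the AAI pair.

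AAI is a plant toxin that proximal tubule cells take up through organic anion transporters, after which it forms bulky DNA adducts. KLF6 is a zinc finger transcription factor that is induced early in injured tubules and binds GC-rich DNA. The proximal tubule reabsorbs most filtered solutes, and burns fatty acids to pay for it. When injured, its cells lose transporters and metabolic enzymes and turn on stress genes, such as the immediate early genes of the AP-1 family, NF-kB targets and the injury markers Havcr1 and Krt20.

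The deposited values are mean normalized expression, in which each nucleus contributes counts per 10000 and a value is the average of a cluster in 1 mouse. A difference is log2(value + 1) in hKLF6_OE_AAI minus the same in Control_AAI, and a gene was called higher or lower from a difference of 0.2 when its larger value was at least 0.5. A gene could therefore be tested through its value in 1 mouse alone. Clusters 6 and 12 are the injured clusters InjuredPT-A and InjuredPT-B. Normal proximal tubule is the unweighted mean of the 5 clusters PT-S3-1, PT-S1-S2-1, PT-S1-S2-2, PT-S3-2 and PT-S3-3, and the 16 other clusters were averaged in the same way. The number of nuclei behind a column is not in the table. The share of gene rows listed at 0, which is larger where fewer counts were averaged, was 22.5% and 22.2% in InjuredPT-A (Control_AAI first), 27.0% and 29.7% in InjuredPT-B, 21% to 31.3% in the normal proximal tubule clusters, and 50.01% to 63.4% in IC-B-2, Macrophage, LH-DL and LH-AL-3. For most cell types the marker sum was largest in a cluster of the matching name, but MC had the largest sum of descending limb markers in hKLF6_OE_AAI, 23.2. Within several clusters, markers of another cell type summed to more than those of the type named. In EC-1 endothelial markers summed to 19.2 and 20.0 and S1 segment markers of proximal tubule to 64.0 and 58.4, and in MC mesangial and stromal markers summed to 21.7 and 23.1 and S1 markers to 35.8 and 38.6. In LH-DL podocyte markers summed to 123.7 and 91.7 beside 24.2 and 22.96 for descending limb markers. In IC-A connecting tubule markers summed to 60.3 and 34.8 beside 24.6 and 30.3 for type A markers, and in DCT they summed to 201 and 202 beside 182 and 171 for distal convoluted tubule markers. The Macrophage cluster of Control_AAI had endothelial markers at 40.2 and macrophage markers at 28.0, and PT-S3-1 had S1 markers at 64.3 and 82.6 and S3 markers at 18.3 and 7.55.

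More genes passed the threshold in the injured clusters than in normal proximal tubule. In InjuredPT-A, 689 of 5253 genes tested were higher in hKLF6_OE_AAI (13.1%) and 1174 were lower (22.3%), a split that became 954 and 794 once the differences were centred on their median of -0.05. In InjuredPT-B, 837 of 4744 were higher (17.6%) and 878 were lower (18.5%). In the mean of the 5 normal clusters, 249 of 3942 were higher (6.32%) and 305 were lower (7.74%), and in the mean of the 16 clusters outside proximal tubule 168 of 4496 were higher (3.74%) and 313 were lower (6.96%). A mean of several clusters varies less than 1 cluster, so single clusters are the fairer comparison: the share called in either direction was 35.5% in InjuredPT-A and 36.2% in InjuredPT-B, against 16.4% to 28.8% in the 5 normal clusters and 18.8% to 83.1% in the 16 others. Across the 23 clusters the share called went with the share of gene rows at 0 (Pearson r = 0.95 and Spearman rho = 0.92, over clusters that share the same 2 mice). InjuredPT-A had few rows at 0 and yet more calls than the normal clusters.

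**Figure D1:**
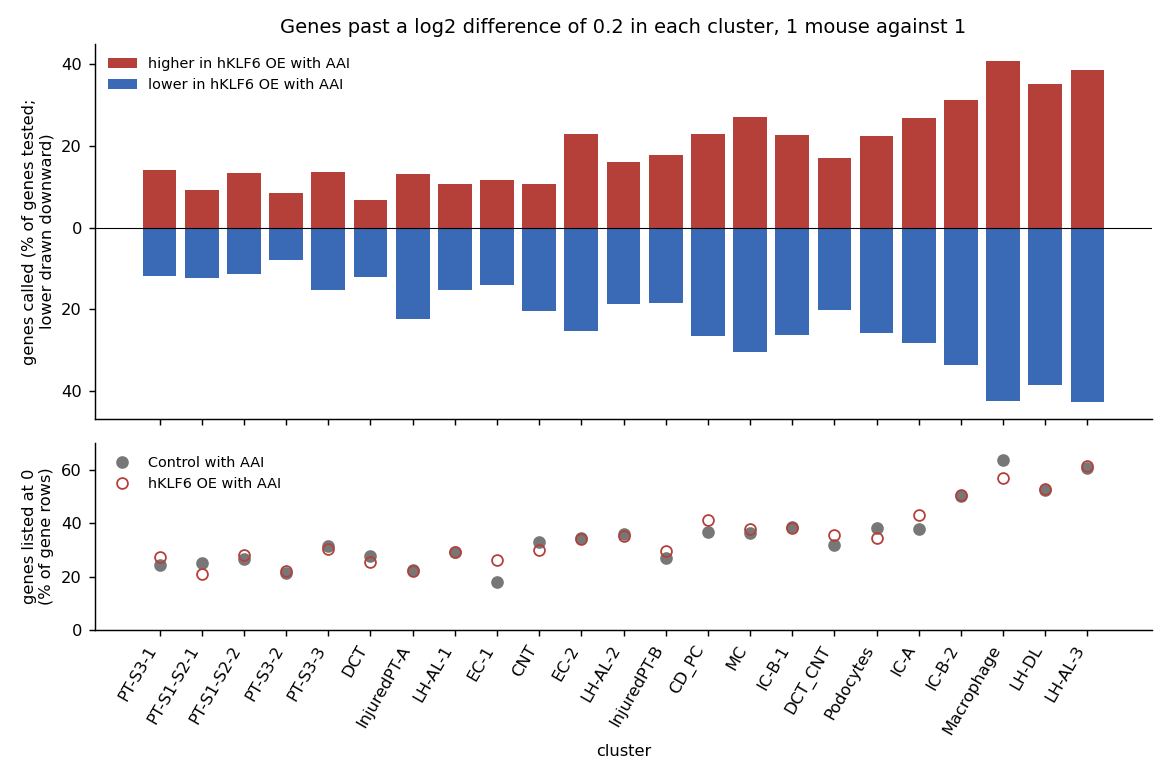
Share of tested genes called higher (red, upward) or lower (blue, downward) in hKLF6_OE_AAI in each of the 23 clusters (upper panel, percent), and share of gene rows listed at 0 in each mouse (lower panel, percent; filled gray, Control_AAI; open red, hKLF6_OE_AAI). The bars are tallest in IC-B-2, Macrophage, LH-DL and LH-AL-3, where 50.01% to 63.4% of rows are at 0, and InjuredPT-A and InjuredPT-B, with 22.2% to 29.7% of rows at 0, have larger shares than the 5 normal proximal tubule clusters.

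The table has no row for the human transgene, so its level could not be checked. The mouse Klf6 row was slightly lower in the hKLF6_OE_AAI mouse throughout proximal tubule: 7.46 and 6.68 in InjuredPT-A (Control_AAI first; difference -0.14), 2.00 and 1.75 in InjuredPT-B (-0.12), and 0.406 and 0.327 in the normal clusters (-0.08). None of these reached the threshold, and the normal clusters were under the minimum value. InjuredPT-A had the highest Klf6 level of the 23 clusters in both mice. Polr2a, which encodes RPB1, the largest subunit of RNA polymerase II, was at 24.3 in InjuredPT-A of Control_AAI and 23.3 in hKLF6_OE_AAI, a difference of -0.06. It was at 4.70 and 4.14 in InjuredPT-B (-0.15) and at 1.83 and 1.71 in the normal clusters (-0.06). In both mice InjuredPT-A had the highest Polr2a level of the 23 clusters, while the difference between the mice in that cluster was near that of all genes, whose median there was -0.05. Of 41 genes for RNA polymerase II, its kinases and elongation factors, 28 were tested in InjuredPT-A, where 2 differed upward and 6 downward. Among all genes tested there 13.1% were higher and 22.3% lower, so the list had no excess of lower genes. Polr2b, the second largest subunit, was at 0.506 and 1.28 there (0.60), and Pcf11, a factor of transcript termination, at 8.52 and 7.0 (-0.25).

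Promoters of the leading genes of InjuredPT-A were searched for GGGCGG, the GC box, and for GGGTGG, on both strands. RefSeq windows on GRCm38.p6, 250 bases before to 50 after a start site, were found for 13 of 18 genes. The windows of Polr2a (chr11:69758584-69758883, minus strand) and of Cxcl2 (chr5:90903649-90903948, plus strand), and the one of the 5 Celf2 windows with the most matches (chr2:6871986-6872285, minus strand), are shown because Polr2a is at its highest in InjuredPT-A, Celf2 had the largest positive difference there and Cxcl2 a large negative one. Capitals mark the matches, which may overlap.
Polr2a: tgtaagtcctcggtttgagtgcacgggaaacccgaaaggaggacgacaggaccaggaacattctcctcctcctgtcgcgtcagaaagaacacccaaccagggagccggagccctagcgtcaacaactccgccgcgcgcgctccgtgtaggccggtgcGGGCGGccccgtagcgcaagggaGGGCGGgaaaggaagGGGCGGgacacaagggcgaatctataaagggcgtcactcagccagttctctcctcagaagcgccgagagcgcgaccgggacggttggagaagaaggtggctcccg
Celf2: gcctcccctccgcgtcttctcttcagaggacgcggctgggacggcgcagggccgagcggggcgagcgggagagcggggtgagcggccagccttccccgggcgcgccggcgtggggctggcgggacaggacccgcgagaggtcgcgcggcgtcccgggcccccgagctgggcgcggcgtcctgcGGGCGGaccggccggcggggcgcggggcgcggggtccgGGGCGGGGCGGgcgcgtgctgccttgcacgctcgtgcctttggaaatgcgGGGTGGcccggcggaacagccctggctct
Cxcl2: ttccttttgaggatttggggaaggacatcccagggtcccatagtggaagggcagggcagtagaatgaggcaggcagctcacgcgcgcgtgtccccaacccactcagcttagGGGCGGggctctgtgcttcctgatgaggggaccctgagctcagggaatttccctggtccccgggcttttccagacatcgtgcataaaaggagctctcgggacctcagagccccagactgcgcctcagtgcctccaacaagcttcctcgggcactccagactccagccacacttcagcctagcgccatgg
The Polr2a window held 3 GC boxes, the Celf2 window 3 GC boxes and 1 GGGTGG, and the Cxcl2 window 1 GC box. The 13 genes had 18 windows, of which 10 held GGGCGG and 5 held GGGTGG. The windows of Cyp2a5, Degs1, Gm17359 and Mad1l1 held neither. GC boxes are common: 35.7% of all 32851 windows held one, as did 65.6% of windows of genes tested in InjuredPT-A, 61.9% of those higher and 65.6% of those lower there. Among genes lower in hKLF6_OE_AAI the share was smaller in InjuredPT-B (53.9%, against 64.3% of genes tested) and in normal proximal tubule (45.3% against 63.2%). A match is a description of letters and not a binding site.

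In InjuredPT-A the largest difference was that of Celf2, an RNA-binding regulator of splicing (chr2:6539694-7509563, GENCODE M21 on GRCm38), at 0.635 in Control_AAI and 8.40 in hKLF6_OE_AAI, a difference of 2.52. Peak1, a pseudokinase of the cytoskeleton, was at 1.16 and 5.84 (1.66). Tex14, a component of germ cell bridges, was at 0.579 and 3.39 (1.48). Mad1l1, a protein of the mitotic checkpoint, was at 7.04 and 19.04 (1.32), and Dnajc17, a J-domain protein that also binds RNA, at 1.88 and 6.59 (1.40). Celf2 was called higher in 18 of the 23 clusters, but elsewhere in proximal tubule the values were far lower, 0.344 and 0.992 in InjuredPT-B and 0.367 and 0.970 in the normal clusters. Tex14 did not reach the minimum of 0.5 in InjuredPT-B or the normal clusters. Of the leading rows 4 overlap other genes on the opposite strand and are uncertain where counting did not use strand. They are Mad1l1, which overlaps Gm16122, Dnajc17, which overlaps Gm14137 and Zfyve19, and 2 further rows: Gm28153, antisense to Crispld1, was at 10.8 and 37.1 (1.69), and Gm17359, which overlaps Fnip2, at 1.78 and 6.87 (1.5). The same doubt holds for Pcf11 above and for Dnajc19, Muc13, Eci3, Gm42418, Srpk2, Maf and Unc5c below, each of which overlaps a row on the opposite strand.

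Genes lower in InjuredPT-A of the hKLF6_OE_AAI mouse included Cyp2a5, a cytochrome P450, at 2.35 and 0.534 (-1.13). Dnajc19, part of the mitochondrial import motor, was at 5.56 and 2.10 (-1.08), Degs1, the desaturase that makes ceramide, at 6.92 and 3.00 (-0.98), and Cep85, a centrosome protein, at 4.02 and 1.40 (-1.06). 2810474O19Rik was at 13.1 and 6.68 (-0.88). Ttr, transthyretin, was at 0.825 in Control_AAI and listed at 0 in hKLF6_OE_AAI. Its highest value in any cluster of hKLF6_OE_AAI was 0.0790, while without AAI it was higher in hKLF6_OE in 22 of 23 clusters.

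**Figure D2:**
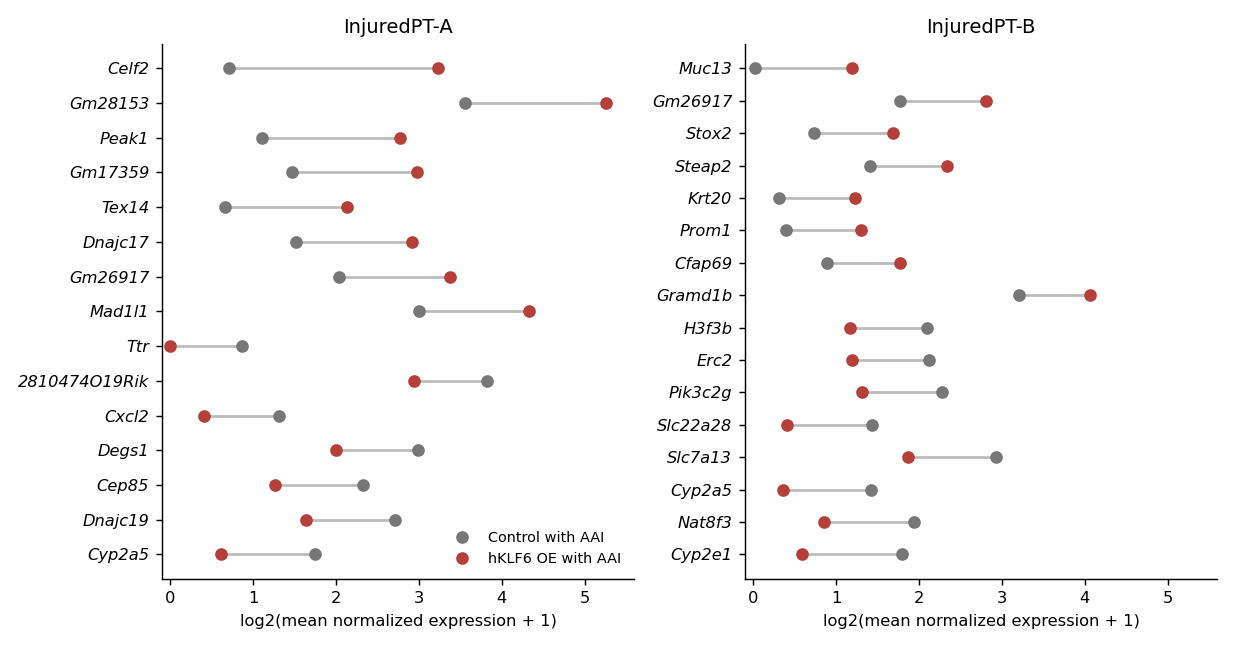
Genes with the largest positive and negative differences in InjuredPT-A (left) and InjuredPT-B (right), as log2(mean normalized expression + 1) in Control_AAI (gray) and hKLF6_OE_AAI (red), 1 mouse each. Celf2 has the longest line, from 0.635 to 8.40 before the logarithm, and Gm26917 (higher) and Cyp2a5 (lower) appear on both sides.

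The AP-1 and immediate early genes, transcription factors and feedback regulators that cells induce within minutes of a stimulus, were higher together in InjuredPT-A. Of 27 in the data, 17 were tested there, and 12 were higher and 0 lower, with a median of 0.35 against -0.05 for all genes. The shares higher and lower over all genes were 13.1% and 22.3% there, and 17.6% and 18.5% in InjuredPT-B. Ier2 was at 1.07 in Control_AAI and 3.48 in hKLF6_OE_AAI (1.11). Zfp36, which destabilizes cytokine mRNAs, was at 3.20 and 7.70 (1.05), Egr1 at 2.12 and 5.40 (1.04), Jun at 1.55 and 3.65 (0.86), Junb at 3.67 and 5.46 (0.47) and Atf3 at 0.352 and 0.974 (0.55). Atf3 reached the minimum of 0.5 only in hKLF6_OE_AAI, so its place in the count follows from being high there. In InjuredPT-B of the same mice 7 were tested, of which 0 were higher and 3 lower (median -0.19): Jun was at 1.82 and 1.31 (-0.28), Ier2 at 0.981 and 0.650 (-0.26) and Junb at 1.47 and 1.12 (-0.22). The 5 normal clusters had medians from -0.40 to 0.38, and the 16 clusters outside proximal tubule from -0.49 to 0.58, so the value of InjuredPT-A lay inside the range of single clusters.

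Cytokine and NF-kB genes ran the other way. Of 27 in the data, 9 were tested in InjuredPT-A, with 7 lower and 0 higher and a median of -0.52. All genes had shares of 22.3% lower and 13.1% higher there, and of 18.5% and 17.6% in InjuredPT-B. Cxcl2, a neutrophil chemokine, was at 1.49 and 0.332 (-0.90), Cxcl1 at 4.797 and 2.52 (-0.72), and the adhesion molecule Icam1 at 2.12 and 1.14 (-0.54). Cxcl2 reached the minimum of 0.5 only in Control_AAI, so its place in the count follows from being high there. The NF-kB inhibitors Nfkbiz and Nfkbia, themselves NF-kB targets, were at 2.69 and 1.43 (-0.60) and at 2.80 and 1.64 (-0.52). Nfkb1 itself was at 1.13 and 1.12. In InjuredPT-B 3 of 8 were higher and 0 lower (median 0.15): Cxcl1 was at 3.75 and 5.35 (0.42), Nfkbia at 0.931 and 1.46 (0.35) and Nfkb1 at 2.29 and 3.17 (0.34). No other cluster with 3 or more members tested had a median as low as that of InjuredPT-A: they ran from -0.10 to 0.21 in the normal clusters and from -0.30 to 0.33 in the others. Bcl2l1, which encodes the survival factor BCL-XL, had the same pattern, at 5.67 and 3.62 in InjuredPT-A (-0.53), 7.06 and 10.1 in InjuredPT-B (0.46) and 4.09 and 5.75 in normal proximal tubule (0.41). Macrophage markers, 7 genes, summed to 0.327 and 0.345 in InjuredPT-A against 28.0 and 29.3 in the Macrophage cluster.

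**Figure D3:**
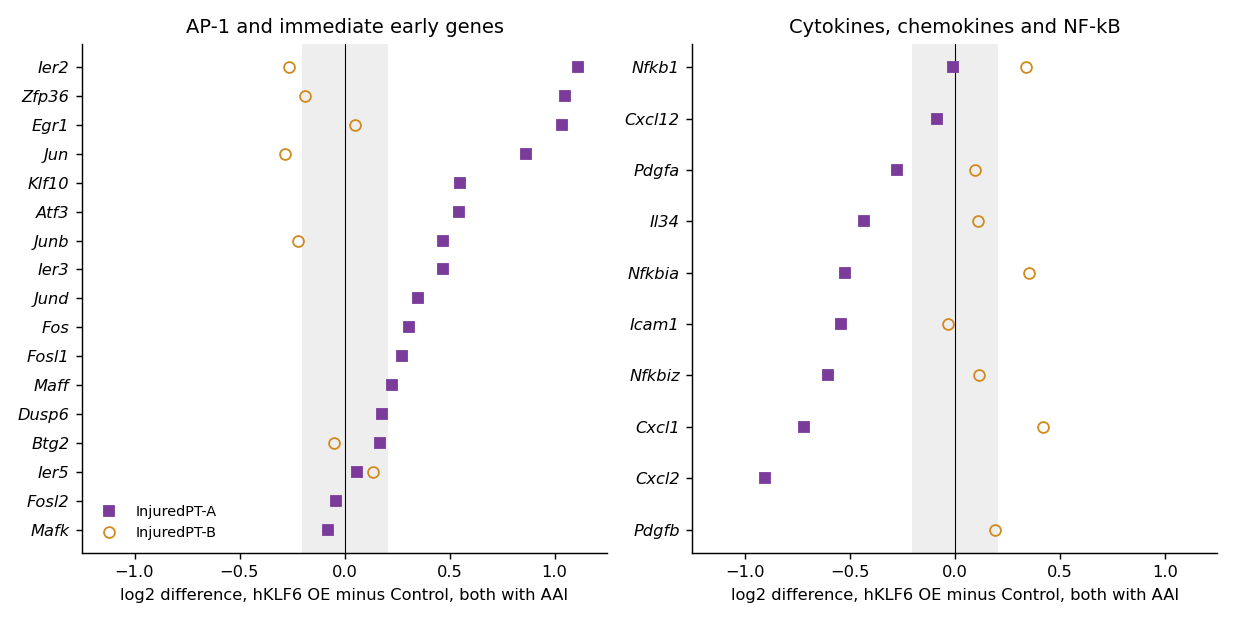
Differences (hKLF6_OE_AAI minus Control_AAI, log2 scale) of the tested AP-1 and immediate early genes (left) and cytokine, chemokine and NF-kB genes (right) in InjuredPT-A (squares) and InjuredPT-B (circles), with the range within 0.2 of 0 in gray. In InjuredPT-A 12 of 17 squares on the left lie right of the gray band and 7 of 9 on the right lie left of it, while no circle on the left lies right of the band and none on the right lies left of it.

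Genes of differentiated proximal tubule were on balance higher in InjuredPT-A of the hKLF6_OE_AAI mouse. Of 44 transport genes of proximal tubule tested, 13 were higher and 5 lower (median 0.10), beside 13.1% and 22.3% of all genes. Slc34a1, the sodium-phosphate cotransporter, was at 13.4 and 22.8 (0.73), Slc22a6, the organic anion transporter OAT1, at 3.59 and 6.09 (0.63), and Atp1b1, the beta subunit of the sodium pump, at 9.96 and 13.8 (0.43). Aqp1, the water channel, was lower, at 2.85 and 1.96 (-0.38). The sum of 5 S1 markers was 22.9 in Control_AAI and 34.5 in hKLF6_OE_AAI, and that of 4 S3 markers 11.08 and 15.9. Some transcripts of distal segments were also higher, with 7 of 12 distal nephron transport genes higher and 1 lower (median 0.28). Thick ascending limb markers were at sums of 10.4 and 13.98 and connecting tubule markers at 3.03 and 6.02. Most of the connecting tubule sum was Slc8a1, at 2.03 and 4.54, which was also higher in InjuredPT-B (0.63) and normal proximal tubule (0.67). A part of other cells or of free RNA in these differences was not tested.

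Energy genes were also higher in InjuredPT-A. Of 60 nuclear genes of oxidative phosphorylation tested, 23 were higher and 0 lower (median 0.14), with Cox6c at 1.62 and 3.02 (0.62) and Cycs, cytochrome c, at 1.27 and 2.12 (0.46). Of 11 mitochondrially encoded genes 7 were higher and 0 lower (median 0.26), with mt-Co1 at 46.9 and 74.9 (0.66). For each list in this paragraph the shares over all genes tested in InjuredPT-A were 13.1% higher and 22.3% lower. Genes of fatty acid oxidation were mixed and near those shares, with 4 of 35 higher and 7 lower. Among them Slc27a2, a fatty acid transporter and acyl-CoA synthetase, was at 4.84 and 8.52 (0.71). The glutathione and NRF2 targets, which defend against oxidants, had 3 of 19 higher and 8 lower (median -0.18), with Nqo1 at 1.28 and 0.531 (-0.57) and Txnrd1 at 3.58 and 2.16 (-0.54).

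Of 24 p53 targets tested in InjuredPT-A, 4 were higher and 7 lower (median -0.10). Over all genes tested there 13.1% were higher and 22.3% lower. Cdkn1a, the cell cycle inhibitor p21, was at 4.83 and 9.31 (0.82), its highest levels of any cluster in either mouse. Mdm2, the ligase that degrades p53, was at 9.32 and 6.77 (-0.41), and Trp53inp1 at 14.9 and 11.13 (-0.39). A list of podocyte slit diaphragm and actin genes, which also holds Vegfa, Col4a3 and Col4a4, had 5 of 9 tested genes higher and 0 lower (median 0.32). Podocyte markers summed to 3.88 and 5.43. Vegfa, the main endothelial growth factor, was at 2.02 and 4.66 (0.90), and the basement membrane genes Col4a3 and Col4a4 at 0.884 and 1.98 (0.66) and at 1.21 and 2.47 (0.65). Injury markers were mixed in InjuredPT-A. Of 27 in the data, 9 were tested there, and 4 were higher and 4 lower (median -0.04). The largest differences among them were those of Spp1, which was higher (0.55), and Plin2, which was lower (-0.70). The injury markers Havcr1 and Krt20 did not reach the minimum of 0.5 there. They were under 0.2 in InjuredPT-A of both mice, at 0.139 and 0.133 and at 0.0440 and 0.0571.

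InjuredPT-B of the hKLF6_OE_AAI mouse had higher levels of most injury markers that were tested. Of 27 in the data, 11 were tested, and 8 were higher and 2 lower (median 0.31, against 0.00 for all genes). Over all genes tested there 17.6% were higher and 18.5% lower. Havcr1, Krt20 and Anxa2 reached the minimum of 0.5 only in hKLF6_OE_AAI, so their place in the count follows from being high there. Havcr1, which encodes KIM-1, was at 0.270 and 1.26 (0.83) and Krt20, a keratin of injured tubules, at 0.245 and 1.34 (0.91). Itgb6, an integrin that activates TGF-beta, was at 3.29 and 5.68 (0.64) and Anxa2 at 0.0380 and 0.604 (0.63). Gdf15 and Plin2 were lower, at 3.39 and 2.07 (-0.52) and at 3.97 and 2.52 (-0.50). The first gene by size was Muc13, a membrane mucin (chr16:33794037-33819934), at 0.0127 and 1.29 (1.18). Prom1, which encodes the progenitor marker CD133, was at 0.315 and 1.46 (0.90), Steap2, a metalloreductase, at 1.66 and 4.06 (0.93) and Stox2 at 0.665 and 2.21 (0.95). In the 5 normal clusters Krt20 was no higher than 0.0589 and Havcr1 no higher than 0.204 in either mouse. Of 9 tested genes of nucleotide excision repair and damage signalling 5 were higher and 0 lower (median 0.20), with Ercc5, the endonuclease XPG, at 0.957 and 1.57 (0.39).

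Genes of differentiated proximal tubule were lower in InjuredPT-B. Of 49 transport genes tested 2 were higher and 28 lower (median -0.24), beside 17.6% higher and 18.5% lower over all genes. Slc7a13, an amino acid transporter of the S3 segment, was at 6.61 and 2.64 (-1.06), the organic anion transporters Slc22a28 at 1.69 and 0.325 (-1.02), Slc22a6 at 2.55 and 1.24 (-0.66) and Slc22a8 at 1.86 and 0.678 (-0.77), and Cubn, the endocytic receptor cubilin, at 5.32 and 2.48 (-0.86). Slc22a28 reached the minimum of 0.5 only in Control_AAI. Slc34a1 and Slc22a6, which were higher in InjuredPT-A, were thus lower here, with Slc34a1 at 15.1 and 9.30 (-0.64). Of 30 genes of fatty acid oxidation 1 was higher and 18 lower (median -0.26), among them Ppara, the receptor that induces the pathway, at 6.38 and 3.68 (-0.66). Of 12 cytochrome P450 genes 0 were higher and 9 lower (median -0.27), with Cyp2e1 at 2.47 and 0.509 (-1.20). Of 14 genes that respond to growth hormone, prolactin or androgen 0 were higher and 10 lower (median -0.38), with Ghr, the growth hormone receptor, at 46.8 and 33.8 (-0.46). The sums of S1 and S3 markers were lower too, 33.6 and 26.9 and 11.5 and 7.88. Oxidative phosphorylation genes had 1 of 46 higher and 14 lower (median -0.14), and mitochondrially encoded genes 0 of 11 higher and 7 lower (median -0.34).

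**Figure D4:**
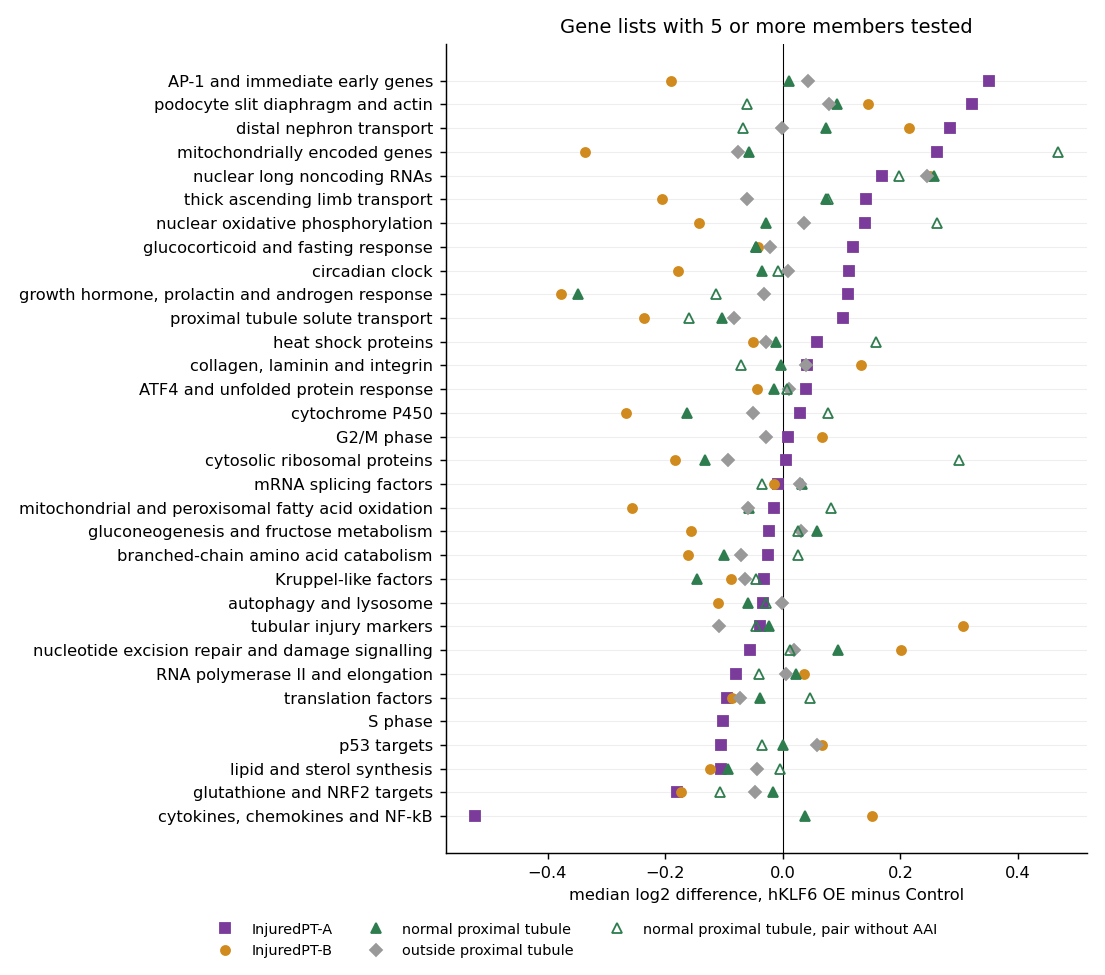
Median log2 difference (hKLF6 OE minus Control) of each gene list with 5 or more members tested, in InjuredPT-A (purple squares), InjuredPT-B (orange circles), normal proximal tubule (green triangles) and the 16 clusters outside proximal tubule (gray diamonds) with AAI, and in normal proximal tubule of the pair without AAI (open triangles). Squares and circles lie on opposite sides of 0 for AP-1 genes (0.35 and -0.19), cytokines (-0.52 and 0.15) and mitochondrially encoded genes (0.26 and -0.34), and filled and open triangles for cytosolic ribosomal proteins (-0.13 and 0.30).

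Normal proximal tubule of the hKLF6_OE_AAI mouse had lower levels of several metabolic enzymes and hormone-responsive genes. It comes from the same 2 mice as the injured clusters. Genes of gluconeogenesis and fructose metabolism went the other way on balance, with 3 of 15 higher and 1 lower (median 0.06). Ehhadh, the bifunctional enzyme of peroxisomal fatty acid oxidation (chr16:21761287-21787807), had the largest negative difference, at 4.75 and 1.77 (-1.05), and was lower in all 5 clusters, by -0.49 to -1.29. Alas1, which starts heme synthesis, was at 3.23 and 1.41 (-0.82), Fmo2, a flavin monooxygenase, at 5.29 and 2.35 (-0.91), Eci3, a peroxisomal isomerase, at 2.10 and 0.883 (-0.72), and Cyp2e1 at 2.23 and 0.946 (-0.73). Over all genes tested in normal proximal tubule 6.32% were higher and 7.74% lower. Of 30 genes of fatty acid oxidation 0 were higher and 8 lower (median -0.06), of 15 cytochrome P450 genes 0 and 7 (-0.16), of 51 transport genes 2 and 20 (-0.10), and of 16 genes responding to growth hormone, prolactin or androgen 1 and 10 (-0.35). In the last list Socs2, a feedback inhibitor of growth hormone signalling, was at 0.564 and 0.163 (-0.43) and Ghr at 123.2 and 96.0 (-0.36). Socs2 reached the minimum of 0.5 only in Control_AAI. The sum of S1 markers was lower in 3 of the 5 clusters and higher in 2, from 26.4 to 149.9 in Control_AAI and from 25.1 to 129.7 in hKLF6_OE_AAI. In PT-S3-1 it was higher while the sum of S3 markers was lower, 18.3 and 7.55. The part of the segments held by a cluster in these differences was not tested.

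Genes higher in normal proximal tubule were led by Pck1, the rate-limiting enzyme of gluconeogenesis (chr2:173153048-173159273), at 4.77 and 10.0 (0.93). By cluster it was at 5.54 and 12.2 in PT-S3-1, 4.04 and 12.3 in PT-S1-S2-1, 6.29 and 14.2 in PT-S1-S2-2, 4.21 and 6.06 in PT-S3-2 and 3.78 and 5.24 in PT-S3-3, higher in hKLF6_OE_AAI in all 5. The noncoding rows Gm42418 and Gm26917, which lie beside each other on chromosome 17 and are known to collect ribosomal RNA reads, were at 6.29 and 14.5 (1.09) and at 3.72 and 8.92 (1.07). Mgmt, which removes alkyl groups from guanine in DNA, was at 1.496 and 3.14 (0.73), Itgb6 at 2.78 and 5.21 (0.71), and Gli2, a transcription factor of Hedgehog signalling, at 0.0643 and 0.864 (0.81). Of 3159 genes past the minimum in all 5 clusters, 46 were higher in each of the 5 and 56 lower.

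In normal proximal tubule of the pair without AAI 317 of 4041 genes were higher in hKLF6_OE (7.84%) and 377 lower (9.33%). Of the 249 genes higher with AAI, 24 were higher without it (9.64% of the first list and 7.57% of the second) and 40 were lower. Of the 305 lower with AAI, 71 were lower without it (23.3% and 18.8%) and 59 were higher. Across the 3690 genes tested in both pairs the differences were nearly unrelated (r = -0.03, rho = -0.11, over genes that are not independent replicates). By list the pairs were alike in some cases and not in others. Of 51 transport genes 4 were higher and 20 lower without AAI (median -0.16), and of 17 genes responding to growth hormone, prolactin or androgen 1 and 6 (-0.11). Genes of fatty acid oxidation had 2 of 29 higher and 2 lower without AAI (median 0.08), and cytochrome P450 genes 2 of 15 and 3 (0.08). In all 5 clusters 138 genes were higher and 111 lower without AAI, and 46 and 56 with it, where 3159 passed the minimum in all 5. The genes that moved the same way in all 5 clusters in both pairs were 4 higher, Pck1, Kcnk5, Polr3e and Sult1d1, and 5 lower, Ehhadh, Aspa, Keg1, Rgl1 and Pik3c2g. Pck1 was at 4.02 and 9.79 without AAI (1.10) and Ehhadh at 8.47 and 4.15 (-0.88), so both differed between the genotypes by about as much without AAI as with it. Clec2h was also lower in both pairs, at 2.02 and 0.624 with AAI (-0.90) and at 4.85 and 1.07 without (-1.5). Another 7 genes were higher with AAI and lower without it in all 5 clusters, and 7 were lower with and higher without. Among the latter were the ferritin subunits Fth1, at 15.5 and 11.6 with AAI (-0.39) and at 11.04 and 19.8 without (0.79), and Ftl1, and Chd9, a chromatin remodeler, at 13.3 and 8.19 with AAI (-0.64) and at 2.10 and 4.82 without (0.91). Itgb6 was also higher with AAI and lower without it, at 4.51 and 1.73 (-1.01).

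Some genes differed in most clusters. Pck1 was called higher in 23 of 23 clusters in this pair and in 23 of 23 in the pair without AAI, and Srpk2, a kinase of splicing factors, in 23 of 23 with AAI and in 2 without. Gm42418 was higher in 22 clusters, and Gm28153, Spink1, a trypsin inhibitor, and Exoc4, a subunit of the exocyst, in 21 each. Spink1 was also higher in 20 clusters without AAI. Cyp2a5 was lower in 21 clusters, as was Miox, the first enzyme of inositol breakdown, and Chd9, Alas1 and Wdr70 were lower in 20 and Ehhadh in 19. Miox was higher in 15 clusters and Chd9 in 21 in the pair without AAI. In all, 12 genes were higher and 15 lower in at least 18 of the 23 clusters, which share the same 2 mice and are not replicates.

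**Figure D5:**
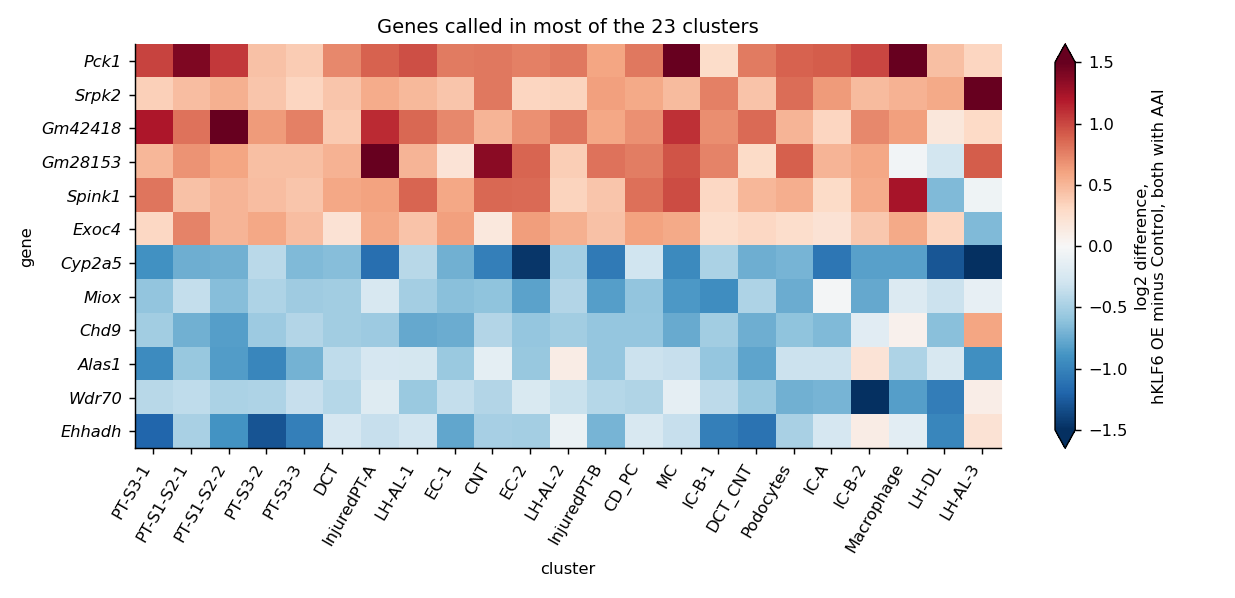
Difference (hKLF6_OE_AAI minus Control_AAI, log2 scale) of the 6 genes called higher and the 6 called lower in the most clusters, by cluster (columns). Pck1 and Srpk2 are red in all 23 columns, Cyp2a5 is blue in all of them, and apart from Alas1 in LH-AL-2 every difference of opposite sign lies in IC-B-2, Macrophage, LH-DL or LH-AL-3.

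Outside proximal tubule the largest positive difference was again that of Pck1, at 1.38 and 3.41 (0.89), followed by Maf, a basic leucine zipper factor, at 1.67 and 3.47 (0.75), which was higher in 14 of the 16 clusters. Maf was at 1.04 and 7.14 in podocytes (2.00), at 1.44 and 6.21 in CD_PC (1.56) and at 1.19 and 3.69 in CNT (1.10), and it was higher in podocytes without AAI as well, at 1.59 and 4.07 (0.97). Unc5c, a netrin receptor, was at 2.07 and 3.74 (0.63). Lower were Cyp2a5, at 1.20 and 0.194 (-0.88), Abca13, a lipid transporter, at 10.97 and 5.58 (-0.86), the peptide transporter Slc15a2, at 1.22 and 0.430 (-0.64), Hao2, a peroxisomal oxidase, at 1.33 and 0.563 (-0.58), and Igfbp5, which binds insulin-like growth factors, at 2.21 and 1.16 (-0.57). Abca13 was at 76.5 and 32.4 in DCT (-1.22), where it was highest, and at 49.8 and 29.7 there without AAI (-0.73). Pck1, Cyp2a5, Slc15a2 and Hao2 are genes of proximal tubule, and the 5 S1 markers summed to 7.10 to 64.0 in these 16 clusters of Control_AAI and to 9.35 to 58.4 in those of hKLF6_OE_AAI, so transcripts of proximal tubule were present throughout. Whether those 4 genes differed in the cells of these clusters or in free RNA was not tested.

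The next genes had some of the largest differences in single clusters outside proximal tubule, and most of them differed in other clusters as well. In DCT, Pde10a, a phosphodiesterase, was at 1.29 and 8.27 (2.01), and it was higher in 10 of the 16 clusters. In LH-AL-1 and EC-1 the sodium-calcium exchanger Slc8a1 was at 1.24 and 4.14 (1.20) and at 12.9 and 25.2 (0.92). Slc8a1 was higher in 7 of the 16 clusters and also within proximal tubule, at 2.03 and 4.54 in InjuredPT-A (0.87), 1.31 and 2.58 in InjuredPT-B (0.63) and 0.816 and 1.90 in normal proximal tubule (0.67). Without AAI Slc8a1 was lower in hKLF6_OE in both, at 4.64 and 1.15 (-1.39) and at 11.45 and 3.04 (-1.62). In podocytes Opcml, a neural adhesion molecule, was at 8.47 in Control_AAI and listed at 0 in hKLF6_OE_AAI, and at 3.53 and listed at 0 in the pair without AAI. In CD_PC, Ranbp3l, which was lower in 7 of the 16 clusters, was at 7.94 and 1.49 (-1.84), and at 2.10 and 10.1 without AAI (1.85). In LH-AL-3 of hKLF6_OE_AAI Slc26a4, the anion exchanger pendrin of type B intercalated cells, was at 5.22 and in Control_AAI it was listed at 0. The 4 type B markers summed there to 0 in Control_AAI and 12.9 in hKLF6_OE_AAI, beside thick ascending limb markers at 182 and 174. In the Macrophage cluster 83.1% of genes passed the threshold and 63.4% and 56.9% of rows were at 0, and no gene is singled out there.

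In proximal tubule of hKLF6_OE_AAI long genes were more often higher than lower and short genes more often lower than higher. In InjuredPT-B 36.2% of 1086 genes with a genomic span over 100 kb were higher and 9.76% lower, while of 1582 genes under 30 kb 6.83% were higher and 30.8% lower. In InjuredPT-A 24.6% of 935 long genes were higher and 10.3% lower, against 12.4% and 25.6% of 2403 short genes, and the share higher was smallest in between, 8.02% of 1859 genes of 30 to 100 kb with 23.9% lower. In normal proximal tubule 13.3% of 1102 long genes were higher and 5.63% lower, against 3.63% and 14.1% of 1073 short genes, and in each of its 5 clusters the median difference was above 0 for long genes and below 0 for short ones. Outside proximal tubule 6.08% of 1414 long genes were higher and 8.06% lower, against 3.37% and 10.9% of 1156 short genes, so there both classes had more genes lower than higher. In normal proximal tubule of the pair without AAI the medians had the other sign, -0.05 for long and 0.03 for short genes. Most RNA in nuclei is unspliced, so measures of the nuclear and cytoplasmic share were set beside this. Malat1, a noncoding RNA kept in the nucleus, was at 884 and 1005 in normal proximal tubule (0.18), at 891 and 1053 in InjuredPT-B (0.24) and at 798 and 999 in InjuredPT-A (0.32). Cytosolic ribosomal protein genes had 0 of 23 higher and 6 lower in normal proximal tubule (median -0.13), 0 of 34 and 12 in InjuredPT-B (-0.18), and 11 of 58 and 9 in InjuredPT-A (0.00). Mitochondrially encoded genes had 1 of 11 higher and 5 lower in normal proximal tubule (median -0.06). They had 0 and 7 in InjuredPT-B (-0.34), and 7 and 0 in InjuredPT-A (0.26). Nuclear genes of oxidative phosphorylation had 0 of 42 higher and 2 lower in normal proximal tubule (-0.03). They had 1 of 46 and 14 in InjuredPT-B (-0.14), and 23 of 60 and 0 in InjuredPT-A (0.14). The shares over all genes are those given above for each set of clusters. Without AAI 32 of 36 cytosolic ribosomal protein genes were higher in normal proximal tubule (median 0.30). So were 10 of 11 mitochondrially encoded genes (0.47) and 39 of 56 nuclear genes of oxidative phosphorylation (0.26). Of 6 nuclear long noncoding RNAs tested there, 3 were higher and 0 lower without AAI (median 0.20), and 3 and 1 with it (0.26). The part of cytoplasmic RNA in the differences by length was not tested.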

How the data were processed

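Nuclei of kidney were counted by the authors with Cell Ranger against a pre-mRNA reference of mm10, which includes intronic reads, filtered, and clustered with Seurat. All 4 samples were handled as 1 batch. Whether doublets were removed is not given in the sources used here. The deposited signal values are mean normalized expression over the nuclei of 1 cluster in 1 mouse, on a linear scale, with a column total of 10000. The unit was read from the values, and the depth of each column is unknown. Of 19632 gene rows, 23 with date-like names were left out. Cluster names follow the order of the sheets of the study's marker table.

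Differences were taken as log2(value + 1), with a minimum of 0.5 and a threshold of 0.2, among 34 gene lists and 15 marker lists. The genes named are the 8 largest differences in each direction in each set of clusters, with a larger value of at least 10 times the smallest value of its column and, for means, the same direction in 4 of 5 or 10 of 16 clusters, the 6 called in the most clusters, the 5 that differed most between InjuredPT-A and normal proximal tubule, the 2 largest in each single cluster, genes of the study's text, and list members. List members other than the largest in each direction, Ttr without AAI and Malat1 were named once their values were known. The members and lists were chosen with earlier results of these data known. With 1 mouse a side no test, interval or p-value was computed. Gene spans came from GENCODE M21 for 19287 rows. The steps were tested on simulated data. The work used Python 3.11.15 with pandas 2.3.3, numpy 2.4.6 and scipy 1.17.1, and matplotlib 3.10.9 for plots. The transgene, chromatin, cell line and human data were not analysed here. A few genes that the rule names are not reported here.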

Additional observations from a re-analysis of the deposited data

Results flagged for a closer look

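Results are listed here where InjuredPT-A and InjuredPT-B, or the pairs with and without AAI, differed between genotypes in opposite directions, by at least 0.1 for the median of a list with 5 or more members tested, or by at least 0.4 for a gene that passed in all 5 normal clusters. With 1 mouse a side, none of these 13 differences between states or pairs was tested. The injured clusters come from the same 2 mice.

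In 8 lists the injured clusters went opposite ways. The median was positive in InjuredPT-A and negative in InjuredPT-B for AP-1 and immediate early genes (0.35 and -0.19), mitochondrially encoded genes (0.26 and -0.34), nuclear genes of oxidative phosphorylation (0.14 and -0.14), proximal tubule transport (0.10 and -0.24), the growth hormone, prolactin and androgen response (0.11 and -0.38), circadian clock genes (0.11 and -0.18) and thick ascending limb transport (0.14 and -0.21). It was negative in InjuredPT-A and positive in InjuredPT-B for cytokines, chemokines and NF-kB (-0.52 and 0.15).

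In normal proximal tubule the cytosolic ribosomal protein genes had a median of -0.13 with AAI and 0.30 without. Lrmda was higher with AAI (0.58) and lower without (-0.54). C330002G04Rik (-0.68 and 0.43), Chd9 (-0.64 and 0.91) and Kap, an androgen-regulated kidney protein (-0.42 and 0.57), were lower with AAI and higher without.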

How the results depend on the processing

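Counts of genes past the threshold were recomputed under other settings, and 36 of 70 stayed within 1.5 times the reported count. Those that did not are given as higher and lower. With a pseudocount of 0.1 they were 1204 and 1988 in InjuredPT-A, 1413 and 1465 in InjuredPT-B, 688 and 669 in normal proximal tubule, and 637 and 940 outside it. With a minimum value of 2, which tests 1122, 1189, 1008 and 1025 genes, they were 208 and 347, 321 and 267, 135 and 157, and 62 and 85. With a threshold of 0.5 they were 108 and 85, 92 and 112, 23 and 34, and 10 and 22, and with a threshold of 1 they were 18 and 3, 2 and 5, 2 and 1, and 0 and 0. So the excess of lower over higher genes in InjuredPT-A held at a threshold of 0.2 and not at 0.5 or 1. Centring on the median of all genes turned it round, with 954 higher and 794 lower. The median of single clusters in place of their mean gave 79 and 175 outside proximal tubule, and leaving out IC-B-2, Macrophage, LH-DL and LH-AL-3, chosen after seeing the data, gave 122 and 236. Of 140 gene differences 106 moved by 0.1 or more with a pseudocount of 0.1 and 34 did not. Under the other settings 0 gene differences did. Of 510 list medians 62 did, 27 with a pseudocount of 0.1 and 34 with a minimum of 2. Under these settings 0 of the called values changed sign.

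No paired analysis was possible because each group has 1 mouse. Nuclei per column, depth and the spread between mice are unknown, so a difference cannot be set against its error, least of all in the 4 clusters with most rows at 0. Free RNA, other cells in a cluster and a shift in the makeup of a cluster cannot be told apart from changed expression.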

Other observations

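Other gene lists are given here beside the share of all genes that passed the threshold in the same direction, 13.1% higher and 22.3% lower in InjuredPT-A, and 17.6% and 18.5% in InjuredPT-B. In InjuredPT-B of hKLF6_OE_AAI, 8 of 24 tested p53 targets were higher and 4 lower (median 0.07), with Aen, a nuclease of apoptosis, at 0.664 in Control_AAI and 1.32 in hKLF6_OE_AAI (0.48). Genes of branched-chain amino acid breakdown had 0 of 19 higher and 9 lower there (median -0.16), and circadian clock genes 1 of 14 higher and 7 lower (median -0.18). Collagen, laminin and integrin genes had 7 of 15 higher and 2 lower in InjuredPT-A (median 0.04) and 6 of 16 and 1 in InjuredPT-B (median 0.13).

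Among 64 mRNA splicing factors tested in InjuredPT-A, 10 were higher and 16 lower (median -0.01), near the shares over all genes. Ddx5, an RNA helicase, was at 17 and 27.2 (0.64), and Srsf11 at 8.14 and 5.23 (-0.55). Of the stress response led by ATF4, 3 of 14 genes tested in InjuredPT-A were higher and 3 lower, with Atf4 itself at 3.72 and 7.62 (0.87). Few cell cycle genes reached the minimum of 0.5: 5 of 42 S phase genes and 9 of 52 G2/M genes in InjuredPT-A, of which 0 and 0 were higher and 1 and 1 lower. Of 31 genes of interferon response and antigen presentation 3 were tested in InjuredPT-A and 3 in InjuredPT-B, with 0 past the threshold in either.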
